A study of Homo sapiens with 9 samples.

Results

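The measured genes were the 33 genes that TC32 cells use to build cholesterol and fatty acids, together with the regulators that set how strongly those genes are transcribed. The rule for membership was gene name and function: 7 genes of the mevalonate arm, 3 of the squalene and lanosterol steps, 9 that turn lanosterol into cholesterol, 6 regulators of the sterol-responsive transcription factors or sterol carriers, and 8 of fatty acid synthesis and desaturation. All 33 were found among the 60603 genes listed and all 33 were among the 16093 with enough reads to be tested. The libraries came from TC32, an established Ewing sarcoma line whose tumour type is driven by the fusion transcription factor EWS::FLI1. As polyA RNA, 3 conditions were sequenced with 3 libraries each, all taken at 30 h: siEF, cells plated on an siRNA that spans the EWS::FLI1 breakpoint, siNEG, cells plated on a nonspecific siRNA, and Media, cells in medium with no siRNA. All 9 shared the same line, labelled wild type, the same serum- and glutamine-supplemented medium and the same labelled batch. A single line and a single time limit what the values can stand for, and serum brings lipids of its own. The labels call the libraries biological replicates without saying whether they came from separate cultures, so every P measures the spread between these libraries. In bulk RNA, a change in every cell and a change in a share of the cells cannot be told apart.

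Cells make cholesterol from acetyl-CoA, first through mevalonate to farnesyl units, then through squalene to lanosterol, and then by a series of reductions, demethylations and isomerisations to cholesterol. Fatty acid synthesis starts from the same cytosolic acetyl-CoA, which ACLY makes from citrate and ACSS2 makes from acetate. Both branches are classical targets of the SREBP transcription factors, encoded by SREBF1 and SREBF2. SCAP escorts SREBP out of the endoplasmic reticulum when sterols are scarce, and INSIG1 and INSIG2 hold the SCAP-SREBP complex back when sterols are plentiful. Many of the enzymes therefore tend to be controlled together, and INSIG1 is itself an SREBP target.

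SREBPs bind sterol regulatory elements, usually beside a CCAAT box bound by NF-Y, so the stretches just upstream of the members were read for both. Those printed below were picked from the stretches that held a match. Of the 33 members, 29 had an upstream window of 250 bases in RefSeq (GRCh38.p14), and ACAT2, FDFT1, SQLE and FASN had none. The element was searched as CACNCCAC, the shared core letters, and both motifs were searched on both strands. The sequences below are written 5′ to 3′ on the gene's strand, and capitals mark CACNCCAC or CCAAT on either strand, so that ATTGG is a CCAAT box on the opposite strand.
SREBF2, chr22:41832961-41833015, plus strand: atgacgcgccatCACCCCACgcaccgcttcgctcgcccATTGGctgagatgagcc
INSIG1, chr7:155297658-155297724, plus strand: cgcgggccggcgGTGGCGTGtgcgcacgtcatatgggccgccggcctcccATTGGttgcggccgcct
SCD, chr10:100346992-100347138, plus strand: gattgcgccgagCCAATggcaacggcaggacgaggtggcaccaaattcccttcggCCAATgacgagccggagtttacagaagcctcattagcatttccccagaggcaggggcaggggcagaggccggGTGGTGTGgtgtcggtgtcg
MSMO1, chr4:165327472-165327651, plus strand: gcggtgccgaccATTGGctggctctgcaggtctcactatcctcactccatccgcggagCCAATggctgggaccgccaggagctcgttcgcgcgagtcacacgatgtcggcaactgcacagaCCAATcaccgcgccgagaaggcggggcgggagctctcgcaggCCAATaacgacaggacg
TM7SF2, chr11:65111786-65111814, plus strand: ccccgagcgccgATTGGctggtgtgctgg
ACSS2, chr20:34874854-34874882, plus strand: gccctccttgggATTGGgcagactctcgg
The first 3 hold both motifs, MSMO1 holds 4 CCAAT boxes and no CACNCCAC, and TM7SF2 and ACSS2 each hold 1 CCAAT box. The ACSS2 stretch lies ahead of its RefSeq start, which is inside the longer gene drawn by GENCODE. CACNCCAC was present for 6 of the 29 members (20.7%, namely ACACA, IDI1, INSIG1, SC5D, SCD and SREBF2) and for 6.49% of 10941 tested genes. A gene was counted if any of its windows held the letters, and a gene with several starts had several windows. CCAAT was present in 20 of 29 (69%) and in 41.6% of those genes. Neither was present for PMVK, INSIG2, FADS1, FADS2, LBR, SCAP, ELOVL6, CYP51A1 or SREBF1. Against siNEG these ranged from INSIG2 (log2FC -1.32) to CYP51A1 (log2FC 0.33), and INSIG1, which holds both motifs, fell as well (log2FC -1.19). The longer TCACNCCAC was present in SREBF2 (3.45% of members) and in 1.11% of genes, and it contains every CACNCCAC match that follows a T. The GC box GGGCGG was present for 27 of the 29 members (93.1%, 73.7% of genes) and the E-box CACGTG for 3 (10.3%, 11.3% of genes). GGAAGGAA, a repeat of the GGAA unit that FLI1 binds, was present for 2, LBR and SC5D (6.9%, 4.24% of genes). A match is a run of letters, and no binding was measured.

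Total counts per library were 20727706 to 33134581, with siEF replicate 2 the lowest. The 10 most abundant genes took 12.3% to 12.9% of the counts in siEF and 5.78% to 6.62% in the other 6 libraries. Levels are given as CPM, the count scaled to a common library size, group means with ± SD over n = 3, and differences as log2 fold changes (log2FC) with their standard error (SE) and edgeR adjusted P. FLI1, which the siRNA targets as part of the fusion, averaged 37.8 ± 2 CPM in siEF, 48.4 ± 0.315 CPM in siNEG and 57.9 ± 1.65 CPM in Media, and was lower in siEF than in siNEG (log2FC -0.35 ± 0.06 SE, adjusted P = 2.88e-05) and in siNEG than in Media (log2FC -0.26 ± 0.05 SE, adjusted P = 0.00347). Gene-level counts do not separate the fusion from FLI1 itself. The authors state that this cell type does not express FLI1. They checked the silencing by qPCR and report a 3-cycle change in expression. The FLI1 counts differed by less, and the cause of that gap was not tested. NR0B1, an EWS::FLI1-induced gene, averaged 17.6 ± 2.35 CPM in siEF and 137 ± 4.98 CPM in siNEG. CD99 and NKX2-2, which mark Ewing sarcoma cells, were present in every library at 157 to 226 CPM and 20.7 to 91.6 CPM, and against siNEG NKX2-2 fell with siEF (log2FC -1.44 ± 0.07 SE, adjusted P = 1.66e-11) while CD99 rose (log2FC 0.23 ± 0.06 SE, adjusted P = 0.00123).

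Most of the lipid-synthesis genes were lower after EWS::FLI1 knockdown than in the control siRNA, while a few rose sharply. Against siNEG, 20 of the 33 members fell, 5 rose and 8 did not pass the test (edgeR quasi-likelihood test, adjusted P under 0.01 over all 16093 genes). A lower call was made for 60.6% of members and for 31.7% of all genes tested, and a higher call for 15.2% of members and 33.6% of all genes. With a change beyond 1 on the log2 scale also required, 4 members fell, namely INSIG2, INSIG1, PMVK and FADS1, and 2 rose, namely TM7SF2 and ACSS2, where 11.7% and 17.1% of all genes met the same lower and higher rule. The siEF and siNEG libraries did not overlap for 22 members with siEF the lower (such separation was seen for 37.1% of all genes) and for 6 with siEF the higher (39.8% of all genes). The median log2 fold change was -0.44 over the members and 0.05 over all genes.

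The balance was different against Media. There 13 members fell and 12 rose, with 8 not passing, where 32.3% of all genes fell and 33.6% rose, and the members' median log2 fold change was -0.09 (0.04 over all genes). Beyond 1 on the log2 scale, INSIG2, PMVK and FADS2 fell and TM7SF2 and ACSS2 rose, where 12.5% and 17.4% of all genes met the lower and higher rule. The controls themselves differed for these genes. In siNEG against Media, 13 members (39.4%) were higher in siNEG, none was lower at adjusted P under 0.01 by edgeR, and 20 did not pass. At an unadjusted P under 0.05, 2 were lower (SREBF1 and FADS2), and DESeq2 called 15 higher and 0 lower. Leaving out 1 library at a time left 9 (without siNEG replicate 2) to 14 members (without siNEG replicate 1) higher and none lower, and the members that lost the call in 1 or more of these were MVK, MVD, HSD17B7, SQLE and LBR. Across all genes 3.83% were higher and 5.96% lower in siNEG than in Media. No member changed by more than 1 on the log2 scale there, a rule met by 0.162% of genes for rises and 0.267% for falls. The members' median was 0.18 and that of all genes 0. These 3 comparisons share libraries in pairs, so their values are set side by side below and are not independent of one another.

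**Figure D1:**
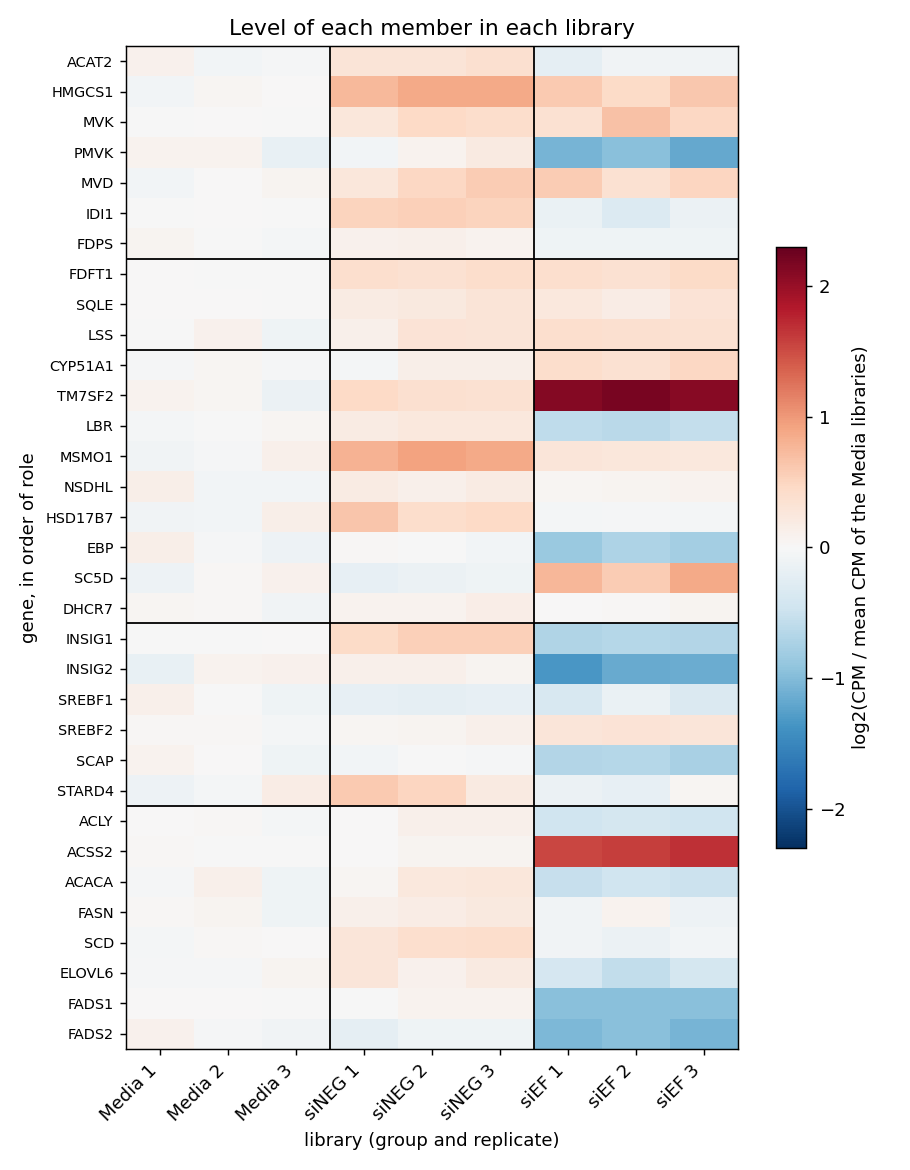
Heat map of the 33 members (rows, grouped by role) in the 9 libraries (columns), coloured by the log2 ratio of CPM to the member's mean CPM over the 3 Media libraries. TM7SF2 and ACSS2 stand out as high in the 3 siEF libraries, and PMVK, INSIG2, FADS1 and FADS2 as low, while HMGCS1 and MSMO1 are highest in siNEG.

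The mevalonate arm, which joins acetyl-CoA units and converts them into isopentenyl and farnesyl diphosphate, held 7 members. Against siNEG, 5 fell (71.4%, 31.7% of all genes) and none rose (33.6% of all genes), with a median of -0.27. PMVK, phosphomevalonate kinase (chr1:154924740-154936719 in GRCh38, as are all gene positions here), fell the most. Its levels were 7.73, 8.33 and 7.23 CPM in siEF, 15.7, 17.3 and 18.8 CPM in siNEG and 17.3, 17.2 and 14.6 CPM in Media. The siEF libraries were all below the others, and siNEG and Media overlapped. PMVK fell against siNEG (log2FC -1.16 ± 0.10 SE, adjusted P = 2.02e-08) and against Media (log2FC -1.08 ± 0.10 SE, adjusted P = 5.1e-08). IDI1, which isomerises isopentenyl diphosphate, had levels of 54.2, 48.5 and 55.2 CPM in siEF, 86.0, 88.0 and 86.0 CPM in siNEG and 60.3, 60.4 and 60.3 CPM in Media. It fell against siNEG (log2FC -0.72 ± 0.05 SE, adjusted P = 3.86e-09) and less so against Media (log2FC -0.19 ± 0.06 SE, adjusted P = 0.00482), and siNEG itself was above Media (log2FC 0.52 ± 0.05 SE, adjusted P = 4.83e-06). The IDI1 call against Media was lost without siEF replicate 2 (log2FC -0.14, adjusted P = 0.0273) and without Media replicate 2 (log2FC -0.20, adjusted P = 0.0112). ACAT2, the cytosolic thiolase that opens the pathway, fell against siNEG (log2FC -0.44 ± 0.06 SE, adjusted P = 1.92e-06) with no call against Media (log2FC -0.12 ± 0.06 SE, adjusted P = 0.0557). ACAT2 shares 454 exon bases with TCP1 on the opposite strand, whose counts were 8859 to 12240 in siEF and 23267 to 25526 in siNEG, and the part of this overlap in the ACAT2 values was not tested. FDPS, farnesyl diphosphate synthase, fell slightly (log2FC -0.20 ± 0.04 SE, adjusted P = 0.000478).

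HMGCS1, the synthase that makes HMG-CoA (chr5:43287470-43313512), changed direction with the control. Its levels were 141, 126 and 143 CPM in siEF, 157, 169.7 and 169 CPM in siNEG and 89.5, 95.7 and 93.9 CPM in Media. The 3 groups did not overlap, and siEF lay between Media and siNEG. HMGCS1 fell against siNEG (log2FC -0.27 ± 0.05 SE, adjusted P = 0.00027) and rose against Media (log2FC 0.56 ± 0.06 SE, adjusted P = 1.17e-07), and it was higher in siNEG than in Media (log2FC 0.83 ± 0.06 SE, adjusted P = 5.01e-08). Mevalonate kinase, MVK, and mevalonate diphosphate decarboxylase, MVD, did not pass against siNEG, with log2 fold changes of 0.12 (95% interval -0.06 to 0.29) and 0.04 (95% interval -0.18 to 0.25). MVK had the highest log2 fold change of the arm, and its levels were 18.2, 22.6 and 19.7 CPM in siEF, 17.2, 19.7 and 18.8 CPM in siNEG and 14.2, 14.4 and 14.1 CPM in Media. Both were higher in siEF than in Media, MVK (log2FC 0.50 ± 0.09 SE, adjusted P = 6.7e-05) as well as MVD (log2FC 0.48 ± 0.10 SE, adjusted P = 0.000562). MVK shares 225 exon bases with MMAB on the opposite strand.

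The 3 enzymes that build squalene and close it into lanosterol did not pass the test between the siRNAs, although LSS passed as higher in siEF under upper quartile scaling (log2FC 0.21, adjusted P = 0.0046). FDFT1, squalene synthase, had a log2 fold change against siNEG of 0.01 (95% interval -0.07 to 0.10), SQLE, squalene epoxidase, of 0.01 (95% interval -0.09 to 0.11), and LSS, lanosterol synthase, of 0.13 (95% interval -0.01 to 0.26). Against Media all 3 rose (33.6% of all genes), namely FDFT1 (log2FC 0.39 ± 0.04 SE, adjusted P = 1.76e-07), SQLE (log2FC 0.25 ± 0.05 SE, adjusted P = 0.000165) and LSS (log2FC 0.37 ± 0.06 SE, adjusted P = 5.94e-05). LSS, with the highest value against siNEG in this group, measured 85.4, 85.1 and 83.9 CPM in siEF, 70.8, 81.9 and 80.3 CPM in siNEG and 65.3, 70.4 and 61.6 CPM in Media. FDFT1 measured 207, 201 and 214 CPM in siEF, 206, 202 and 208 CPM in siNEG and 159, 157 and 157 CPM in Media, so the Media libraries were the lowest and those of the 2 siRNAs overlapped. The epoxidase SQLE measured 146, 139 and 152 CPM in siEF, 139, 143 and 151 CPM in siNEG and 123, 123 and 122 CPM in Media, again with Media lowest and the siRNAs overlapping.

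Of the 9 members from lanosterol to cholesterol, TM7SF2, SC5D and CYP51A1 rose against siNEG (33.3%, 33.6% of all genes), LBR, EBP, MSMO1 and HSD17B7 fell (44.4%, 31.7% of all genes), and NSDHL and DHCR7 did not pass (median -0.10). TM7SF2 (chr11:65111845-65116384) and LBR (chr1:225401502-225428925) encode proteins that catalyse the same reaction, reduction of the sterol C14 double bond. LBR also anchors lamin B and chromatin at the nuclear envelope. TM7SF2 measured 45.6, 47.7 and 44.7 CPM in siEF, 14.4, 13.6 and 13.4 CPM in siNEG and 11.1, 10.9 and 9.60 CPM in Media. Every siEF library was above every other, and siNEG was somewhat above Media without overlap. TM7SF2 rose 3.33-fold against siNEG (log2FC 1.74 ± 0.07 SE, adjusted P = 9.27e-13) and 4.35-fold against Media (log2FC 2.12 ± 0.07 SE, adjusted P = 1.1e-13), the largest rise among the members in both comparisons. LBR measured 193, 188 and 199 CPM in siEF, 330.0, 343 and 340.3 CPM in siNEG and 279, 289 and 299.8 CPM in Media. It fell against siNEG (log2FC -0.80 ± 0.04 SE, adjusted P = 3.35e-11) and against Media (log2FC -0.58 ± 0.04 SE, adjusted P = 2.13e-09). Expressed per kb of the canonical transcript, the ratio of TM7SF2 to LBR was 0.56, 0.601 and 0.534 in the siEF libraries, 0.103, 0.0943 and 0.0933 in siNEG and 0.0944, 0.0896 and 0.0761 in Media. LBR thus stayed the more abundant of the pair in all 9 libraries, at a mean of 51.6 CPM per kb against 29.2 for TM7SF2 in siEF.

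Among the other enzymes of this segment, SC5D, sterol C5 desaturase, measured 81.9, 72.2 and 87.5 CPM in siEF, 42.0, 43.8 and 44.7 CPM in siNEG and 44.1, 48.8 and 51.3 CPM in Media, with siEF above all other libraries, and it rose against siNEG (log2FC 0.89 ± 0.07 SE, adjusted P = 8.68e-09) and Media (log2FC 0.75 ± 0.07 SE, adjusted P = 7.51e-08). CYP51A1, lanosterol demethylase, rose by less (log2FC 0.33 ± 0.05 SE, adjusted P = 2.27e-05 against siNEG). CYP51A1 overlaps AKAP9 exons by 108 bases on the opposite strand, and its pseudogenes CYP51A1P1 and CYP51A1P2 drew 24 to 62 counts per library. On the same strand CYP51A1 shares 2844 exon bases with AC000120.2, which held at most 5 counts in any library. CYP51A1 also shares 2827 with ENSG00000289027, which was not among the genes counted. EBP, the sterol isomerase, fell to a similar degree against both controls (log2FC -0.76 ± 0.07 SE, adjusted P = 3.38e-08 against siNEG and log2FC -0.78 ± 0.07 SE, adjusted P = 2.39e-08 against Media). EBP shares 644 exon bases on the same strand with AF196969.1, which held 0 to 2 counts per library. MSMO1, sterol C4-methyl oxidase (chr4:165327667-165343164), whose upstream stretch with 4 CCAAT boxes is printed above, measured 86.5, 85.8 and 84.8 CPM in siEF, 125, 136 and 129.8 CPM in siNEG and 67.0, 69.9 and 77.3 CPM in Media. The 3 groups did not overlap, with Media lowest, siEF between and siNEG highest, so that MSMO1 fell against siNEG (log2FC -0.60 ± 0.06 SE, adjusted P = 4.21e-08), rose against Media (log2FC 0.26 ± 0.06 SE, adjusted P = 0.000501) and had the largest siNEG rise over Media of all members (log2FC 0.87 ± 0.06 SE, adjusted P = 3.21e-08). HSD17B7, a sterol ketone reductase, fell against siNEG (log2FC -0.53 ± 0.10 SE, adjusted P = 0.0002). Pseudogene HSD17B7P2 held 26 to 31 counts in siEF, 25 to 28 in siNEG and 8 to 19 in Media, and whether reads were split between the copies was not tested, so the HSD17B7 value is uncertain. NSDHL, the partner of MSMO1 in demethylation, and DHCR7, which acts at the end of the pathway, had log2 fold changes of -0.10 (95% interval -0.23 to 0.02) and -0.08 (95% interval -0.18 to 0.03) against siNEG.

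**Figure D2:**
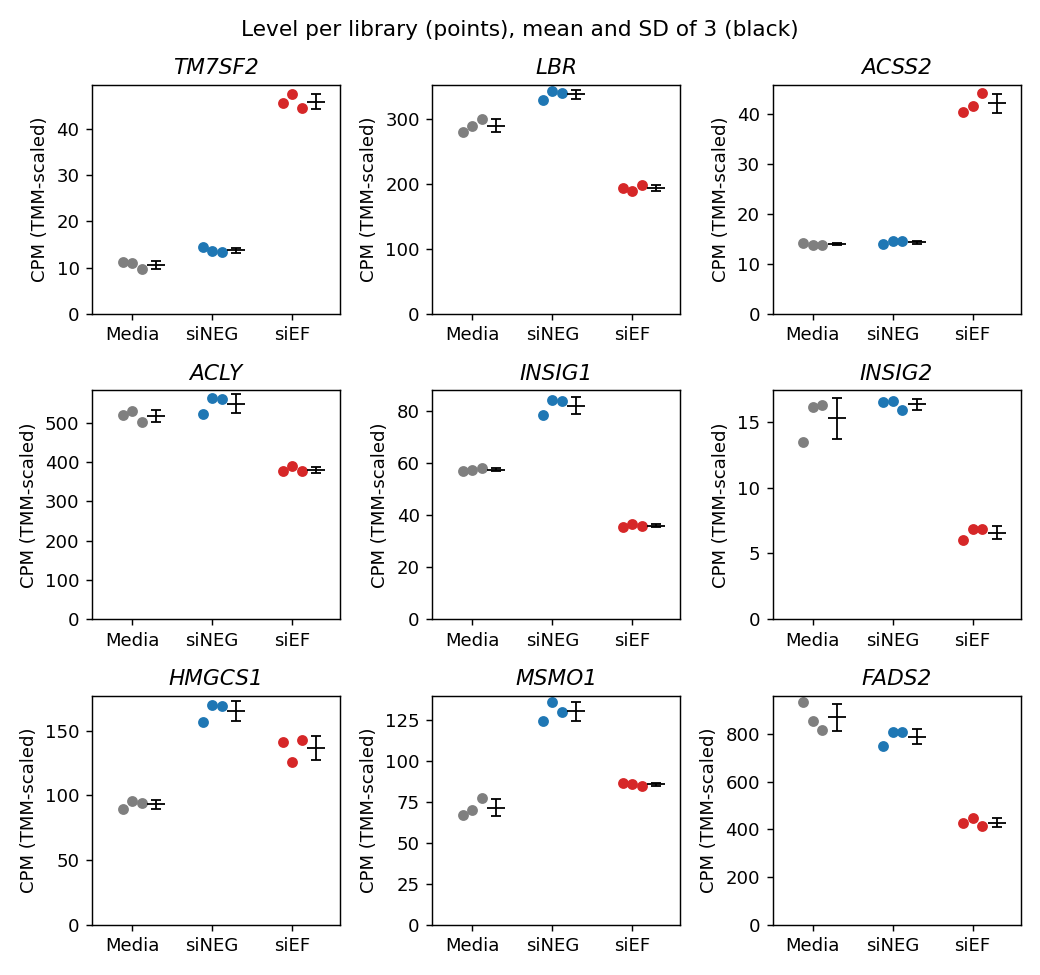
CPM in each library (points) with the group mean and SD (bar) for TM7SF2, LBR, ACSS2, ACLY, INSIG1, INSIG2, HMGCS1, MSMO1 and FADS2, each panel on its own linear axis. TM7SF2 and ACSS2 are high in siEF while their counterparts LBR and ACLY are low, and HMGCS1 and MSMO1 in siEF lie between Media and siNEG.

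Both sterol-dependent brakes on SREBP were lower after knockdown. Of the 6 regulators and carriers, INSIG2, INSIG1, SCAP and STARD4 fell against siNEG (66.7%, 31.7% of all genes). SREBF2 rose (16.7%, 33.6% of all genes) and SREBF1 did not pass, with a median of -0.60. INSIG1 (chr7:155297776-155310235), with both motifs in its upstream stretch, measured 35.5, 36.5 and 35.7 CPM in siEF, 78.3, 84.2 and 83.9 CPM in siNEG and 56.9, 57.2 and 58.0 CPM in Media. It fell against siNEG (log2FC -1.19 ± 0.05 SE, adjusted P = 3.62e-12) and by less against Media (log2FC -0.68 ± 0.05 SE, adjusted P = 5.82e-09), and siNEG was above Media (log2FC 0.52 ± 0.05 SE, adjusted P = 2.99e-06). INSIG2 (chr2:118088452-118110997) measured 6.0, 6.86 and 6.89 CPM in siEF, 16.6, 16.6 and 15.9 CPM in siNEG and 13.5, 16.1 and 16.3 CPM in Media. The siEF libraries were the 3 lowest, and INSIG2 fell to 0.402 of the siNEG level (log2FC -1.32 ± 0.10 SE, adjusted P = 2.78e-09) and to 0.430 of the Media level (log2FC -1.22 ± 0.10 SE, adjusted P = 8.03e-09), with no call between the controls (log2FC 0.10 ± 0.09 SE, adjusted P = 0.507). INSIG1 remained the more abundant per kb, at 12.4 CPM per kb in siEF against 1.85 for INSIG2.

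SCAP, the escort protein, fell by similar amounts against both controls (log2FC -0.66 ± 0.06 SE, adjusted P = 4.03e-08 against siNEG and log2FC -0.69 ± 0.06 SE, adjusted P = 2.1e-08 against Media). SREBF2, the SREBP gene best known for sterol targets, measured 200.2, 207 and 200.2 CPM in siEF, 172, 173 and 181 CPM in siNEG and 168, 169 and 161 CPM in Media, and it rose slightly against siNEG (log2FC 0.21 ± 0.04 SE, adjusted P = 0.000315) and Media (log2FC 0.29 ± 0.04 SE, adjusted P = 1.22e-05). SREBF1, best known for fatty acid targets, had a log2 fold change of -0.09 (95% interval -0.22 to 0.04) against siNEG and fell against Media (log2FC -0.28 ± 0.06 SE, adjusted P = 0.000621). SREBF1 shares 556 exon bases with RAI1 on the opposite strand. Per kb, the ratio of SREBF1 to SREBF2 was 0.399, 0.445 and 0.408 in siEF, 0.524, 0.514 and 0.498 in siNEG and 0.658, 0.603 and 0.596 in Media, with no overlap between the groups. STARD4, a soluble sterol carrier, fell against siNEG (log2FC -0.53 ± 0.11 SE, adjusted P = 0.000599) and did not pass against Media (log2FC -0.09 ± 0.12 SE, adjusted P = 0.512). These are RNA levels, and neither SREBP cleavage nor sterol content was measured.

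Nearly all of the fatty acid arm was lower after knockdown than with the control siRNA. Of 8 members, 7 fell against siNEG (87.5%, 31.7% of all genes) and ACSS2 alone rose (12.5%, 33.6% of all genes), with a median of -0.58. Against Media, 5 fell (62.5%, 32.3% of all genes), ACSS2 rose (12.5%, 33.6% of all genes) and 2 did not pass, with a median of -0.44. ACLY and ACSS2, the alternative sources of cytosolic acetyl-CoA, moved in opposite directions. ACSS2 (chr20:34872146-34927962) measured 40.5, 41.6 and 44.3 CPM in siEF, 13.9, 14.5 and 14.5 CPM in siNEG and 14.1, 13.8 and 13.8 CPM in Media. The siEF libraries were all above the rest, and the controls overlapped. The rise was 2.95-fold against siNEG (log2FC 1.56 ± 0.06 SE, adjusted P = 1.26e-12) and 3.04-fold against Media (log2FC 1.60 ± 0.06 SE, adjusted P = 9.23e-13). ACLY measured 376, 389.6 and 376 CPM in siEF, 522, 563 and 562 CPM in siNEG and 519.9, 530.2 and 502 CPM in Media, and it fell against siNEG (log2FC -0.53 ± 0.04 SE, adjusted P = 1.26e-08) and Media (log2FC -0.44 ± 0.04 SE, adjusted P = 1.14e-07). Per kb, the ratio of ACSS2 to ACLY was 0.16, 0.159 and 0.175 in siEF, 0.0397, 0.0383 and 0.0384 in siNEG and 0.0404, 0.0386 and 0.0409 in Media. ACLY was the higher of the pair in every library.

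The enzymes that use acetyl-CoA fell by unequal amounts. ACACA, the carboxylase that makes malonyl-CoA, fell against siNEG (log2FC -0.67 ± 0.06 SE, adjusted P = 5.8e-08) and Media (log2FC -0.49 ± 0.06 SE, adjusted P = 2.58e-06). FASN, fatty acid synthase, showed the smallest fall of the arm (log2FC -0.21 ± 0.06 SE, adjusted P = 0.00315) and did not pass against Media (log2FC -0.04 ± 0.06 SE, adjusted P = 0.578). The FASN call against siNEG was lost without siEF replicate 1 (log2FC -0.19, adjusted P = 0.0181), siEF replicate 3 (log2FC -0.17, adjusted P = 0.0233) or siNEG replicate 3 (log2FC -0.19, adjusted P = 0.0165). ELOVL6, which elongates palmitate, fell against both (log2FC -0.64 ± 0.07 SE, adjusted P = 4.06e-07 against siNEG). SCD, the desaturase that makes oleate and whose upstream stretch is printed above, fell against siNEG (log2FC -0.45 ± 0.05 SE, adjusted P = 1.45e-07), did not pass against Media (log2FC -0.09 ± 0.05 SE, adjusted P = 0.0743) and was higher in siNEG than in Media (log2FC 0.35 ± 0.05 SE, adjusted P = 4.39e-05).

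FADS1 and FADS2, the neighbouring desaturases of polyunsaturated fatty acids, are read from opposite strands of chromosome 11, with FADS1 inside the span that GENCODE 44 (GRCh38) gives FADS2. FADS1 (chr11:61799627-61829318) measured 279.6, 279 and 279.9 CPM in siEF, 540.3, 576 and 581 CPM in siNEG and 549, 551 and 540.2 CPM in Media. It fell to 0.494 of the siNEG level (log2FC -1.02 ± 0.04 SE, adjusted P = 1.35e-12) and 0.512 of the Media level (log2FC -0.97 ± 0.04 SE, adjusted P = 2.35e-12). FADS2 (chr11:61792980-61867354), the most abundant member per kb in the controls, measured 425, 449 and 413 CPM in siEF, 752, 808 and 810.4 CPM in siNEG and 934, 856 and 819 CPM in Media. It fell to 0.543 of the siNEG level (log2FC -0.88 ± 0.05 SE, adjusted P = 2.17e-10) and to 0.493 of the Media level (log2FC -1.02 ± 0.05 SE, adjusted P = 3.25e-11). In neither gene did siEF overlap the controls. The genes share 490 exon bases on opposite strands, and FADS2 shares 49 bases with FEN1, which held 612 to 856 counts in siEF and 4438 to 4915 in siNEG. The strand setting of the counting was not given in the sources used here, and the part of these overlaps was not tested.

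**Figure D3:**
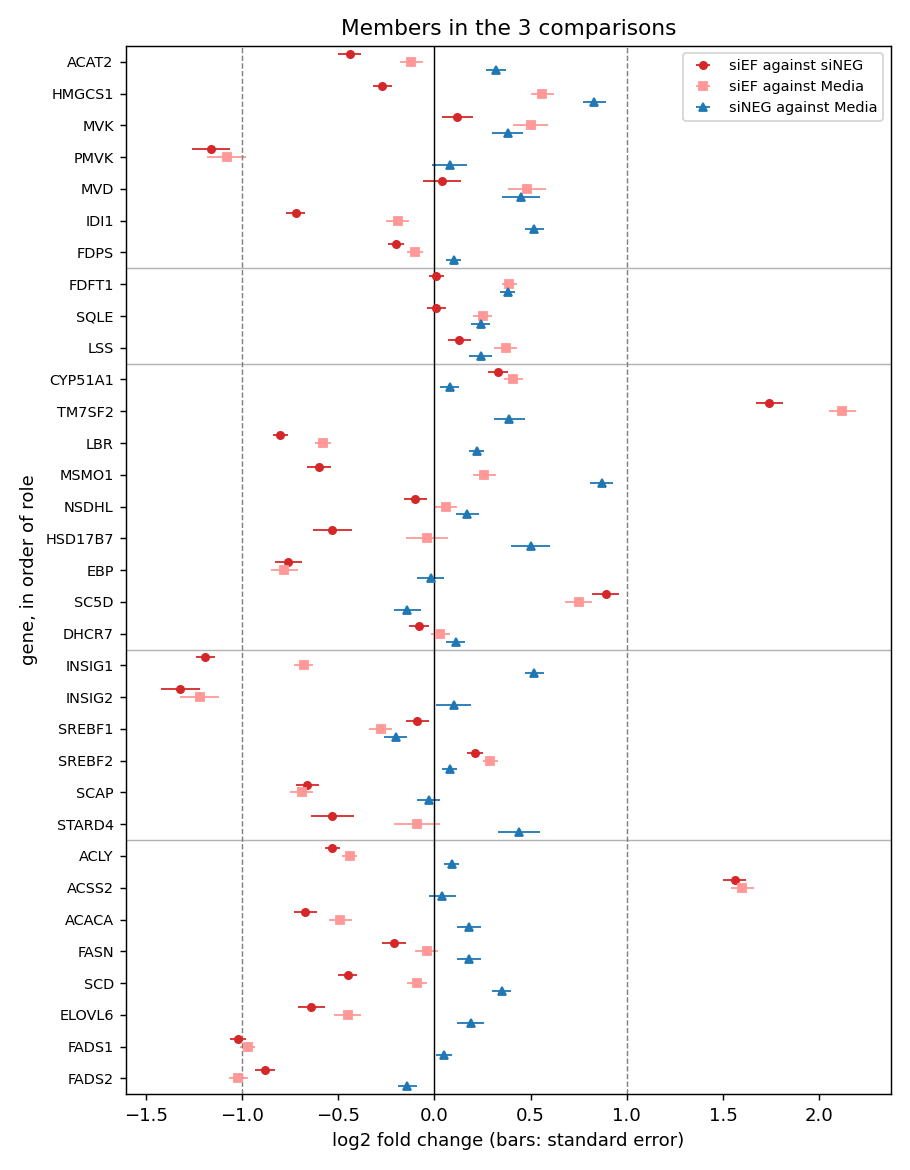
Log2 fold changes of the 33 members with bars of 1 SE, ordered by role (grey lines), for siEF against siNEG, siEF against Media and siNEG against Media, and dashed lines at 1 and -1. Most of the fatty acid members lie left of 0 in both siEF comparisons, and HMGCS1 and MSMO1 change side with the control used.

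Set side by side, the 3 comparisons sorted the members into groups. TM7SF2, CYP51A1, SC5D, SREBF2 and ACSS2 were higher in siEF than in both controls. Lower than both were 12 members, of which 9 did not pass between the controls (PMVK, EBP, INSIG2, SCAP, ACLY, ACACA, ELOVL6, FADS1 and FADS2) and 3 were higher in siNEG than in Media (IDI1, LBR and INSIG1). HMGCS1 and MSMO1 were below siNEG and above Media. ACAT2, HSD17B7 and SCD were below siNEG, which was above Media, and did not pass against Media, while FDPS, STARD4 and FASN fell against siNEG and passed in neither other comparison. MVK, MVD, FDFT1 and SQLE were above Media in both siRNA conditions and did not pass between the siRNAs, and LSS passed only in siEF against Media, as higher. SREBF1 passed only there, as lower, and NSDHL and DHCR7 passed nowhere.

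The summed level of the members was lowest in siEF. The 33 members together held 4597, 4636 and 4638 CPM in siEF, 5884, 6231 and 6286 CPM in siNEG and 5517, 5528 and 5330 CPM in Media. The fatty acid arm made up most of this, at 2518, 2581 and 2510 CPM in siEF and 3585, 3850 and 3888 CPM in siNEG. The mevalonate arm summed to 452, 440 and 462 CPM in siEF, 554, 578 and 579 CPM in siNEG and 442, 431 and 424 CPM in Media, so that siEF and Media overlapped. For the squalene and lanosterol steps siEF, at 438, 425 and 450 CPM, overlapped siNEG, at 417, 427 and 440 CPM, and both lay above Media, at 347, 351 and 341 CPM. From lanosterol to cholesterol the sums were 829, 809.2 and 853 CPM in siEF and 909, 950 and 948 CPM in siNEG. Media, at 795, 808.0 and 809.0 CPM, lay just below siEF there. The regulators and carriers summed to 360, 381 and 363 CPM in siEF. They summed to 419, 427 and 431 CPM in siNEG and 410, 404 and 387 CPM in Media.

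Genes next to these pathways were read in siEF against siNEG, where 31.7% of all genes tested fell and 33.6% rose, and no list was tested against that background. Among 9 partners of SREBP processing, 5 fell (55.6%) and 2 rose (22.2%; median -0.29), with PAQR3 falling the most (log2FC -1.44 ± 0.09 SE, adjusted P = 5.17e-10), and the site-1 protease MBTPS1 (log2FC 0.39 ± 0.05 SE, adjusted P = 3.39e-06) and the ubiquitin ligase RNF139 (log2FC 0.26 ± 0.07 SE, adjusted P = 0.0023) rising. The isoprenoid branch, which draws on farnesyl diphosphate, had 8 falls (61.5%) and 1 rise (7.69%) among 13 genes (median -0.45). NUS1, a subunit of the dolichol-making prenyltransferase, went from 147 ± 7.81 CPM in siNEG to 16.0 ± 0.641 CPM in siEF (log2FC -3.19 ± 0.06 SE, adjusted P = 9.35e-17), and PDSS1, which makes the side chain of coenzyme Q, fell (log2FC -1.78 ± 0.08 SE, adjusted P = 5.88e-12). FNTA, the shared subunit of the farnesyl and geranylgeranyl transferases, was the only rise of that list (log2FC 0.77 ± 0.05 SE, adjusted P = 1.42e-09).

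Of the genes of cholesterol trafficking, storage and efflux, 17 of 19 were tested, 11 rose (64.7%, 33.6% of all genes) and 2 fell (11.8%, 31.7% of all genes), with a median of 0.65. The cholesterol exporters ABCG1 and ABCA1, textbook targets of the liver X receptors, rose the most. ABCA1 measured 69.8, 73.9 and 73.2 CPM in siEF, 8.94, 8.69 and 10.1 CPM in siNEG and 9.27, 10.6 and 9.46 CPM in Media (log2FC 2.97 ± 0.07 SE, adjusted P = 3.03e-15), and ABCG1 measured 7.48, 7.10 and 7.33 CPM in siEF, 0.853, 0.884 and 0.641 CPM in siNEG and 1.18, 1.14 and 1.12 CPM in Media (log2FC 3.19 ± 0.19 SE, adjusted P = 1.27e-10). In both genes the siEF libraries were above all others. TMEM97 (log2FC -0.97 ± 0.05 SE, adjusted P = 1.08e-11) and SOAT1, which esterifies cholesterol for storage (log2FC -0.66 ± 0.05 SE, adjusted P = 2.05e-09), fell. The supply of carbon and NADPH had 4 falls (40%) and 2 rises (20%) among 10 tested of 11 (median -0.02). Malic enzyme ME1 (log2FC -1.30 ± 0.05 SE, adjusted P = 2.09e-12) and citrate synthase CS (log2FC -0.35 ± 0.04 SE, adjusted P = 3.95e-07) fell the most, and MLYCD, which breaks malonyl-CoA down (log2FC 1.07 ± 0.16 SE, adjusted P = 1.23e-05), and the mitochondrial citrate carrier SLC25A1 (log2FC 0.67 ± 0.08 SE, adjusted P = 8.25e-07) rose. Other elongases, desaturases and acyl-CoA synthetases had 7 falls (43.8%) and 4 rises (25%) among 16 tested of 18 (median -0.12). ACSL1 (log2FC -1.58 ± 0.06 SE, adjusted P = 1.01e-12) and ELOVL2 (log2FC -1.03 ± 0.08 SE, adjusted P = 6.31e-09) fell, FADS3, the paralogue of FADS1 and FADS2, rose (log2FC 1.18 ± 0.08 SE, adjusted P = 1.53e-09), and ACSL5 rose from 2, 9 and 1 counts in the siNEG libraries to 91, 73 and 94 in siEF (log2FC 4.72 ± 0.44 SE, adjusted P = 5.38e-08). Some of these genes also differed between the controls. FADS3 was lower in siNEG than in Media (log2FC -0.57, edgeR adjusted P = 0.000192), with a smaller rise against Media (log2FC 0.61). TMEM97 and SOAT1 were higher in siNEG than in Media (log2FC 0.38 and 0.23, edgeR adjusted P = 2.14e-05 and 0.00231). Their falls against Media were smaller (log2FC -0.58 and -0.42).

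**Figure D4:**
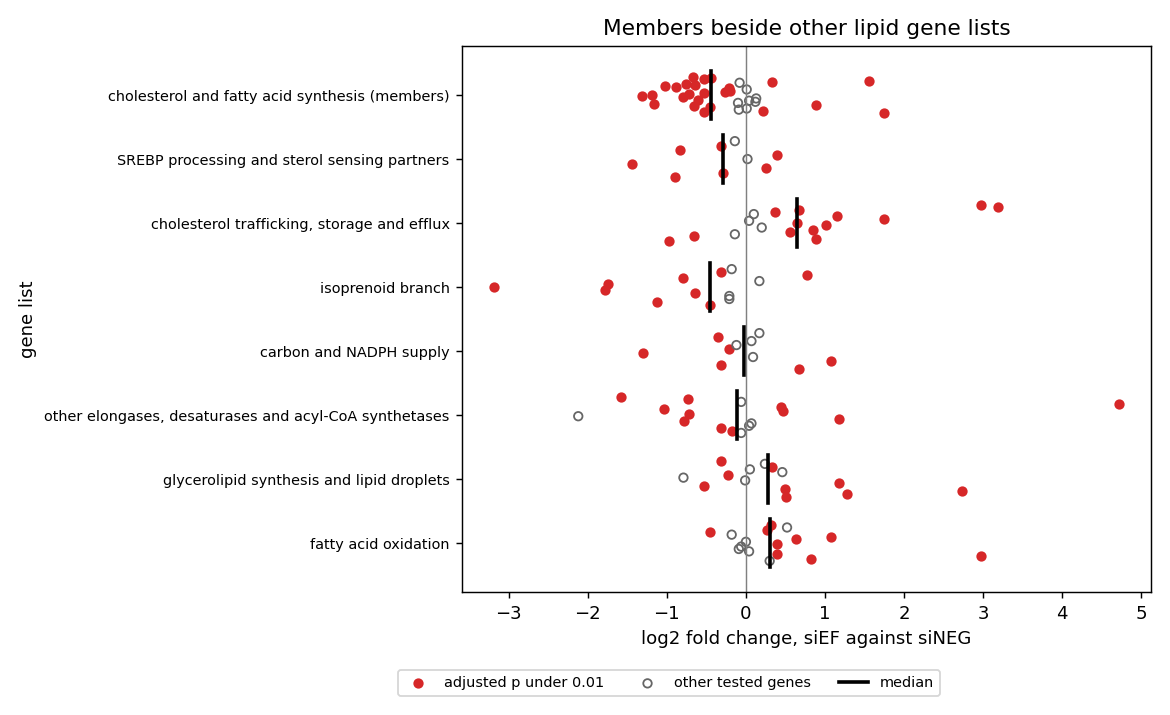
Log2 fold change of siEF against siNEG for every tested gene of the members and of 7 neighbouring lipid lists, with filled points for adjusted P under 0.01, open points for the rest and a bar at each list's median. The members and the isoprenoid branch have medians of -0.44 and -0.45, and trafficking, storage and efflux has 0.65, with ABCG1 and ABCA1 farthest right in that list.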

How the data were processed

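PolyA RNA from TC32 cells was sequenced in 9 libraries, 3 each of siEF, siNEG and Media, all at 30 h. The authors aligned reads to hg38 with STAR and deposited expected counts per gene from RSEM. Their processing notes also name cutadapt 2.10, FastQC and DESeq2 1.32.0. The annotation release and strand setting are not given in the sources used here. The labels name a small RNA library kit although polyA RNA is stated. Expected counts were rounded, and genes were filtered with filterByExpr (16093 of 60603 retained), scaled by TMM and tested with edgeR 4.0.16 (R 4.3.3), using the quasi-likelihood test over all 9 libraries with Benjamini-Hochberg adjustment over all genes tested. A gene "rose" or "fell" at adjusted P under 0.01, and a stricter rule also required a log2 fold change beyond 1. CPM used TMM-scaled library sizes, and intervals are 95%. In simulated counts for siEF against siNEG (15708 genes), 62 of 67 genes changed 1.5-fold, 67 of 67 changed 2-fold and 66 of 66 changed 4-fold were recovered, with 7 false calls. The simulation changed a far smaller share of genes than was called in the data. It therefore does not give the error rates of the real comparison and did not test the scaling.

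GENCODE 44 matched 60261 of 60603 identifiers, all members included, and gave positions, exon overlaps and canonical transcript lengths. Motif windows came from RefSeq. The members, neighbouring lists and tests were chosen with earlier results of these data known. All 33 members could be named. From each neighbouring list, the 2 largest rises and 2 largest falls of siEF against siNEG were named among genes passing the test with at least 1 CPM in the higher group, and some genes this rule selects are not reported here. Members beyond the stricter rule, and the largest rise and fall of each role group, are given in every library, as are other members chosen after their values were seen. Alternatives were unrounded counts, upper quartile or RLE scaling, DESeq2 1.42.0, at least 10 counts in every library or no filter, only the 6 libraries compared, a replicate block, leaving out the 10 most abundant genes of each library, and leaving out each library. Replicates of a group differed by more than sampling noise in every pair (chi-square per degree of freedom 3.57 to 23.2).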

Additional observations from a re-analysis of the deposited data

How the results depend on the processing

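Counts of members called were within 1.5 times of the reported values under every alternative, except that with upper quartile scaling 1 member, in place of 3, fell beyond 1 on the log2 scale in siEF against Media. Under that scaling the median of all genes was 0.13 in siEF against siNEG and 0.14 in siEF against Media, so values there are relative to that shift. The members' median in siEF against siNEG was -0.35 under upper quartile scaling and -0.48 with no filter, and -0.47 to -0.40 when 1 library was left out. Same-numbered libraries did not deviate together (correlations -0.09 to 0.05), and the replicate block gave 5 higher and 20 lower against siNEG, 12 and 13 against Media and 13 higher in siNEG than in Media, with medians of -0.44, -0.09 and 0.18.

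Of 1782 member values under alternatives, 1710 kept direction and call, 29 lost a call, 16 gained one and 27 changed sign. FASN and FDPS lost their fall against siNEG under upper quartile scaling (log2 fold change -0.12 and -0.11), and so did IDI1 and SREBF1 against Media (-0.09 and -0.18). IDI1 also lost that call with at least 10 counts in every library (-0.16, edgeR adjusted P = 0.0167). The gained calls were LSS in siEF against siNEG under upper quartile scaling (0.21) and, in siNEG against Media, LSS, STARD4, ACACA, FASN and NSDHL as higher under 1 or more alternatives. The sign changes concerned 11 members, none called in either fit. In siEF against siNEG, they were DHCR7 under upper quartile scaling (0.01), MVD (-0.01), FDFT1 (-0.03) and SQLE (-0.03) with no filter, and FDFT1 (0.00) and SQLE (-0.01) with DESeq2. Leaving out 1 library gave -0.08 to 0.10 for MVD, -0.02 to 0.03 for FDFT1 and -0.05 to 0.04 for SQLE. In siEF against Media, they were HSD17B7 (0.06), STARD4 (0.01), FASN (0.06) and SCD (0.01) under upper quartile scaling, which also turned the members' median to 0.01, DHCR7 with no filter (0.00), HSD17B7 with at least 10 counts (0.00), and, with 1 library left out, FASN (-0.10 to 0.00), HSD17B7 (-0.08 to 0.02) and DHCR7 (-0.02 to 0.04). In siNEG against Media, leaving out 1 library gave -0.07 to 0.05 for EBP, -0.08 to 0.01 for SCAP and 0.00 to 0.15 for PMVK. The cause was not tested.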

Other observations

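In siEF against siNEG, 6 of 14 tested genes of glycerolipid synthesis and lipid droplets rose (42.9%) and 3 fell (21.4%), with 5 not passing (median log2 fold change 0.29, 0.05 over all genes, of which 33.6% rose and 31.7% fell), and the list was not tested against that background. PLIN3, a lipid droplet coat protein, averaged 168 ± 6.39 CPM in siEF and 69.1 ± 3.55 CPM in siNEG (log2FC 1.28 ± 0.06 SE, adjusted P = 5.88e-12), and LPIN1, a phosphatidate phosphatase, rose by a similar amount (log2FC 1.18 ± 0.07 SE, adjusted P = 5.95e-11). LPIN2 (log2FC -0.53 ± 0.07 SE, adjusted P = 2.55e-06) and AGPAT1, an acyltransferase of phosphatidate synthesis (log2FC -0.31 ± 0.05 SE, adjusted P = 6.04e-05), fell. PLIN2 was not tested.

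In fatty acid oxidation, 8 of 16 genes rose against siNEG (50%, 33.6% of all genes), 1 fell (6.25%, 31.7% of all genes) and 7 did not pass. The median log2 fold change was 0.31 (0.05 over all genes), and this list too was not tested against that background. PPARA, the nuclear receptor for fatty acids, measured 59.1, 58.4 and 59.2 CPM in siEF, 7.46, 7.66 and 7.44 CPM in siNEG and 8.26, 10.2 and 10.9 CPM in Media (log2FC 2.97 ± 0.08 SE, adjusted P = 1.31e-14), and CPT1C, a carnitine palmitoyltransferase family member, rose as well (log2FC 1.07 ± 0.11 SE, adjusted P = 1.82e-07).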
